A study of Mus musculus with 15 samples.

Results

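The Tdpoz family was followed in mouse 2-cell embryos through the 5 rows of the expression table that carry the names Tdpoz1, Tdpoz2, Tdpoz3, Tdpoz4 and Tdpoz5, out of 53023 rows in all. The members were taken by name, with earlier results of these data known, and all 5 passed the filter on low values. TDPOZ proteins join a TRAF-like (MATH) domain, which in related proteins binds substrates, to a POZ (BTB) domain. They share this layout with SPOP, an adaptor that brings substrates to ubiquitin ligases built on the scaffold protein CUL3. Transcripts of the family are known from the mouse 2-cell embryo, the stage at which the embryo first transcribes its own genome on a large scale.

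Each library was made from polyA RNA of a pool of 5 ICR embryos, fertilised in vitro and taken 32 h after insemination. The study asked what disrupting filamentous actin in the nucleus does to the embryo. It injected mRNA 2 h after insemination, coding for wild-type actin or for R62D, an actin mutant that does not polymerise. Each protein was tagged with HA and carried a signal for import into the nucleus. The 6 libraries formed 3 pairs, but the sample titles contradicted the annotated injection on what each pair was. For pair A (libraries A1 and A2) the title is Wt, while the annotation says non-injected. For pair B (B1 and B2) the title is R62D, while the annotation gives actinWT-HA-NLS. For pair C (C1 and C2) the title is the non-injected control, while the annotation gives actinR62D-HA-NLS. The pairs are therefore named by letter, and no direction below can be assigned to an actin. In either reading all 3 pairs were fertilised, cultured and collected alike, and where an mRNA was injected the overexpression was transient. The other 9 samples of the series were not analysed here.

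The members lie within 310 kb of chromosome 3 (mm10), and for 5 of 5 the coordinates in the table equal those of GENCODE M21. Tdpoz1 (ENSMUSG00000094084.2) spans 93669333 to 93676310 on the minus strand, with 2 annotated transcripts and an exonic length of 2353 bases. Tdpoz2 (ENSMUSG00000103362.1; 93651542 to 93652686, minus strand) is a single exon of 1145 bases. Tdpoz3 (ENSMUSG00000058005.3; 93826020 to 93827117, plus strand), Tdpoz4 (ENSMUSG00000060256.1; 93796398 to 93797510, plus strand) and Tdpoz5 (ENSMUSG00000094163.1; 93960292 to 93961314, minus strand) are annotated by their coding bases alone, 1098, 1113 and 1023 of them. The first 90 coding bases of each member, read from the M21 coding models, are shown because the likeness of the members decides how far their reads can be told apart. Capitals mark a base that differs from the base shared by at least 3 of the 5 members at that position, and where no base is shared by 3, all 5 are in capitals.

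Tdpoz1: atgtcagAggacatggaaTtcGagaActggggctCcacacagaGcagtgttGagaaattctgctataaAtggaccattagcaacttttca
Tdpoz2: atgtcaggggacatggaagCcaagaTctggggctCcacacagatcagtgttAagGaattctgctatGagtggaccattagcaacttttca
Tdpoz3: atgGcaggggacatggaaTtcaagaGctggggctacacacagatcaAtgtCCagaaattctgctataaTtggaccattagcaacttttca
Tdpoz4: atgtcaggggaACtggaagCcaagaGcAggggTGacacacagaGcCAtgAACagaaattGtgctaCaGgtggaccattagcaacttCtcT
Tdpoz5: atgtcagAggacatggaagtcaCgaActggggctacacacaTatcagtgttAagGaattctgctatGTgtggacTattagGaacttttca

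In this stretch Tdpoz4 stood furthest from the others, with 18 capitals against 6 to 10 in the other members, positions without a shared base included. Over the whole coding sequence, identity between members ran from 78.4% (Tdpoz1 and Tdpoz4) to 88.1% (Tdpoz1 and Tdpoz3) among the 10 pairs of members. Each member had closer relatives among other annotated genes of the cluster, 1 to 3 of them at 94.7% to 100% identity. Of the 50-base stretches of the transcript, 58.8% were found in no other annotated gene for Tdpoz4, 54.9% for Tdpoz1, 51.7% for Tdpoz2 and 33.8% for Tdpoz3. Tdpoz5 had none: 100% of its 974 stretches occur in Gm10697, which RefSeq lists as Tdpoz7, and 63.4% in Gm37596. Tdpoz3 shared 66.2% of its stretches with Gm4982, and Tdpoz1 shared 44.5% with Gm9117 and 40.7% with Gm9125, RefSeq's Tdpoz9. Tdpoz2 shared 38.7% with Gm5773, and Tdpoz4 shared 31.0% with Gm5541. The reads recovered from the table came in steps of 0.01 read, so shared reads had been divided among genes. The value of a single member is uncertain to that extent, and that of Tdpoz5 cannot be told apart from that of Gm10697.

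**Figure D1:**
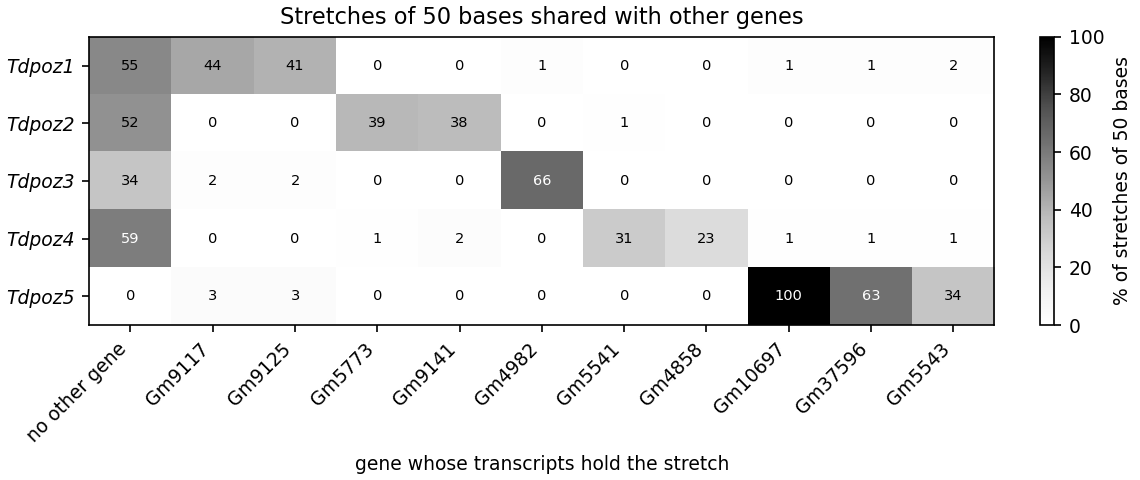
Percentage (shade and number) of the 50-base stretches of each member (rows) found in no other annotated gene (first column) or in a named gene of the cluster (other columns). Tdpoz4 had 58.8% in no other gene and Tdpoz5 had 0%, with 100% of its stretches in Gm10697.

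The libraries held 907210 to 1555431 assigned reads. A2 and C2 stood apart from the other 4 on the first principal component, which held 28.7% of the variance. Of the markers for the labelled stage, 5 of 5 were tested, with a sum of 691 to 1450 FPKM. The summed level of oocyte and maternal markers ran from 1260 to 1600 FPKM in 4 libraries, and was 702 FPKM in A2 and 803 FPKM in C2. Cumulus and granulosa markers summed to 8.02 to 14.7 FPKM, with 5 of 10 listed at 0, and most of the sum came from Nr5a2 (7.80 to 14.0 FPKM). Sperm markers summed to 28.6 to 47.8, with 4 of 8 listed at 0, and most of that sum came from Ldhc (28.6 to 46.0 FPKM). Library B2, in which the family was highest, held 41.4 reads on chromosome Y, where the other 5 held 170.8 to 411.3. The part of these differences in the family's values was not tested.

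The members kept parts of 1 order of level across libraries. Levels are FPKM, fragments divided by exonic length and by library depth. This puts the members on 1 scale only within the limits set by the shared reads and the gene models. Tdpoz3, Tdpoz4 and Tdpoz5 are annotated by coding bases alone, while Tdpoz1 is annotated with 2353 bases. Before division by length, Tdpoz5 held 147.3 to 384.9 reads a library and Tdpoz1 held 84.0 to 217.4. The part of the unequal models in the order was not tested. The place of Tdpoz5 in particular rests on reads that Gm10697 could equally hold. Tdpoz5 was the highest member in 6 of 6 libraries, at 2.85 to 4.47 times Tdpoz1, and it took 54.4% to 67.1% of the family's summed FPKM. Tdpoz1 and Tdpoz4 did not separate: Tdpoz1 was the higher in 3 of 6 libraries. Tdpoz4 exceeded Tdpoz2 in 5 of 6. Tdpoz2 exceeded Tdpoz3 in 6 of 6, by as little as 1.02 times. Among the 13443 genes whose mean was 1 FPKM or more, Tdpoz5 stood between the percentiles 95.9 and 98.3 of its library and Tdpoz3 between 49.8 and 82.3.

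Tdpoz1, which an older name (2cpoz56) ties to the 2-cell embryo, measured 40.1 and 47.6 FPKM in pair A, 54.2 and 77.3 in pair B, and 49.4 and 39.3 in pair C, with the library numbered 1 given first here and below. Both libraries of pair B lay above the other 4, and pairs A and C overlapped. Taken singly, both B libraries lay above both of A in 18.8% of all genes, and above both of C in 14.8%. The mean was 43.8 ± 5.31 FPKM in pair A, 65.8 ± 16.4 in pair B and 44.4 ± 7.09 in pair C (SD, n = 2 in each), from 84.0 to 217.4 reads a library. The difference of B from A was 0.56 ± 0.32 on the log2(FPKM + 1) scale (SE; limma, adjusted p = 0.991), with a 95% interval of -0.192 to 1.31. With B2 left out the difference was 0.306, and with B1 left out it was 0.811.

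Tdpoz2 measured 11.9 and 15.2 FPKM in pair A, 32.6 and 37.8 in pair B, and 16.8 and 23.4 in pair C. It was the one member whose 3 pairs did not overlap anywhere: both libraries of B were above both of C, and both of C above both of A. Taken singly, the first held for 14.8% of all genes and the second for 16.5%. The share of genes with both was not counted. The mean was 13.6 ± 2.37 FPKM in pair A, 35.2 ± 3.72 in pair B and 20.1 ± 4.72 in pair C (SD, n = 2). The difference of B from A was 1.32 ± 0.33 on the log2 scale, with a 95% interval of 0.537 to 2.10 and an unadjusted limma p of 0.00508, the lowest of any member in any comparison. It did not pass after adjustment over all genes tested (limma, adjusted p = 0.887). C was lower than B by a log2 difference of -0.79 ± 0.33 (limma, unadjusted p = 0.0476, adjusted p = 1). Leaving out any 1 library kept the difference of B from A between 1.15 and 1.49. The values rest on few reads, 13.6 and 19.5 in pair A against 47.2 and 51.8 in pair B.

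The 2 annotated genes that share most with Tdpoz2 did not repeat its pattern in B1. Gm5773 measured 16.3 and 11.5 FPKM in pair A, 13.7 and 26.6 in pair B, and 9.89 and 14.6 in pair C. Gm9141 measured 17.8 and 18.2 FPKM in pair A, 17.2 and 36.0 in pair B, and 18.5 and 23.3 in pair C. In both, B1 lay within or below pair A, and B2 was the highest library. Summed with these 2 genes, the Tdpoz2 group gave 46.1 and 44.9 FPKM in pair A, 63.4 and 100.4 in pair B, and 45.2 and 61.4 in pair C. Both B libraries were above the other 4 in this sum, B1 only narrowly above C2. The sum holds Tdpoz2 itself, which gave 32.6 of the 63.4 FPKM in B1, so it is no separate support for the pattern. How the shared reads were divided was not tested.

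Tdpoz3 was the lowest member by mean, with 11.6 and 4.89 FPKM in pair A, 11.1 and 30.3 in pair B, and 16.5 and 7.09 in pair C. B2 was the highest library and A2 the lowest, and B1 lay below A1. These are 39.7 reads in B2 and 6 in A2, the fewest behind any value of the family. The log2 difference of B from A was 1.18 ± 0.63 with a 95% interval of -0.301 to 2.65 (limma, adjusted p = 0.991). It was 0.488 without B2 and 0.629 without A2. The difference of C from A, 0.47 ± 0.63, was -0.0784 without A2 and -0.0889 without C1.

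Tdpoz4 measured 45.8 and 20.3 FPKM in pair A, 32.0 and 99.98 in pair B, and 45.5 and 42.8 in pair C. B2 again stood highest and A2 lowest, and the spread within pair B (66.0 ± 48.1, SD, n = 2) was larger than any difference between pair means. The log2 difference of B from A was 0.87 ± 0.59, with a 95% interval of -0.509 to 2.25 (limma, adjusted p = 0.991). It was 0.0617 without B2 and 0.301 without A2. The difference of C from A, 0.51 ± 0.59, was -0.0534 without A2, and that of C from B, -0.36 ± 0.59, was 0.453 without B2.

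Tdpoz5 measured 177.0 and 179.2 FPKM in pair A, 154.6 and 315.0 in pair B, and 220.7 and 158.8 in pair C. B1 was the lowest library and B2 the highest, so pair B spanned all other values. The mean was 178.1 ± 1.54 FPKM in pair A, 234.8 ± 113.4 in pair B and 189.7 ± 43.8 in pair C (SD, n = 2), and the log2 difference of B from A was 0.31 ± 0.39 (limma, adjusted p = 0.991). Without B2 it was -0.203, and the difference of C from B, -0.24 ± 0.39, was 0.274. Gm10697, which holds all of its sequence, had nearly the same values: 176.9 and 177.5 FPKM in pair A, 153.3 and 306.7 in pair B, and 219.6 and 155.8 in pair C.

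**Figure D2:**
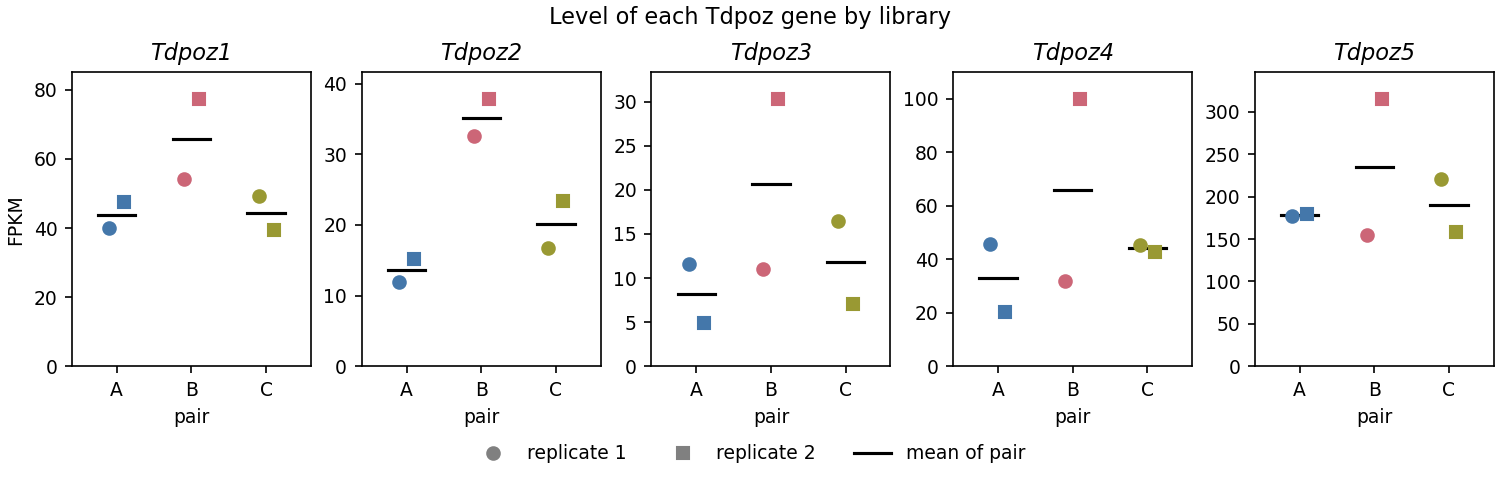
FPKM of each member (1 panel each, linear axis from 0) in the 6 libraries, grouped by pair. Every panel has its highest point in B2, and only in Tdpoz1 and Tdpoz2 does B1 also lie above pairs A and C.

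B2 was the highest library for 5 of 5 members, where 19.5% of all genes tested were highest in B2. Highest and lowest library differed by 1.97 times in Tdpoz1, 2.04 in Tdpoz5, 3.18 in Tdpoz2, 4.92 in Tdpoz4 and 6.20 in Tdpoz3. Over the 6 libraries, log2 values of the members correlated in pairs with Pearson's r between 0.353 (Tdpoz2 and Tdpoz5) and 0.896 (Tdpoz3 and Tdpoz4). This is a description over libraries that share depth and, for these genes, reads. In pools of embryos, fewer cells holding a transcript and less transcript per cell cannot be told apart.

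The sum over the members was 286.4 and 267.2 FPKM in pair A, 284.4 and 560.4 in pair B, and 348.9 and 271.4 in pair C. B2 was 1.97 times B1, while B1 lay between A1 and A2. The ratio of pair means was 1.53 for B to A, 1.12 for C to A and 0.734 for C to B, given without a test. With B2 left out, the log2 ratio of B to A was 0.0393 in place of 0.61, and that of C to B was 0.125 in place of -0.446. The log2 ratio of C to A, 0.164, was -0.0283 without C1 and 0.334 without C2. The sum of Tdpoz1 to Tdpoz4, which leaves out the member with no stretch of its own, was 109.4 and 88.03 FPKM in pair A, 129.8 and 245.5 in pair B, and 128.1 and 112.7 in pair C. In that sum B1 was above both libraries of A and both of C, though close to C1. By reads, the family took 0.0337% to 0.0430% of the assigned reads in 5 libraries and 0.0692% in B2.

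**Figure D3:**
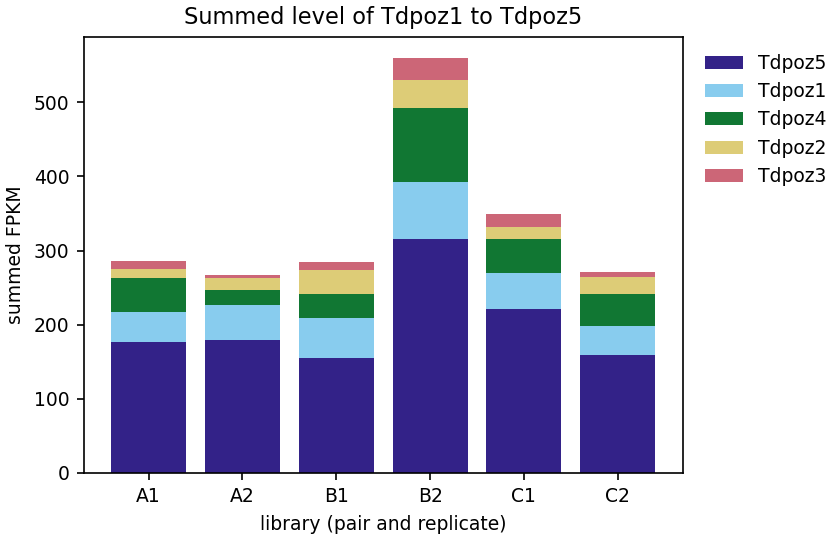
Summed FPKM of the members in each library, as bars stacked by member from 0. B2 reaches 560.4 and the other 5 libraries lie between 267.2 and 348.9, with Tdpoz5 the largest share in every bar.

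Set against all genes, no comparison gave a member that passed. In B against A, 5 of 5 members had a positive difference (median 0.869, against 0.0663 over all genes tested), beside 55.1% of all genes. Tdpoz2 alone had an unadjusted limma p below 0.05, as did 2.77% of all genes in that direction. In C against B, 5 of 5 had a negative difference (median -0.545, against 0), where 49.9% of all genes had a positive one. Tdpoz2 alone was again below 0.05, beside 2.22% of all genes lower in C. In C against A, 5 of 5 were positive (median 0.468, against 0.0648), beside 56.5% of all genes. None was below 0.05, beside 1.67% of all genes higher in C. For Tdpoz1 and Tdpoz5 the differences of C from A, 0.0131 and 0.0717, turned negative under median scaling, and Tdpoz1 also under quantile normalization. The 3 comparisons share libraries, so their directions are not separate evidence.

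Both libraries of B lay above both of A for 2 of 5 members (Tdpoz1 and Tdpoz2), and for 18.8% of all genes. The same 2 members had both B libraries above both of C, beside 14.8% of all genes. Tdpoz2 alone had both C libraries above both of A, beside 16.5% of all genes. Over all genes tested, limma called 0% in each of the 3 comparisons at an adjusted p below 0.05. The number with an unadjusted p below 0.05 was 614 for B against A, 518 for C against B and 405 for C against A. A fit of the recovered reads with limma-voom called 0 genes as well.

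**Figure D4:**
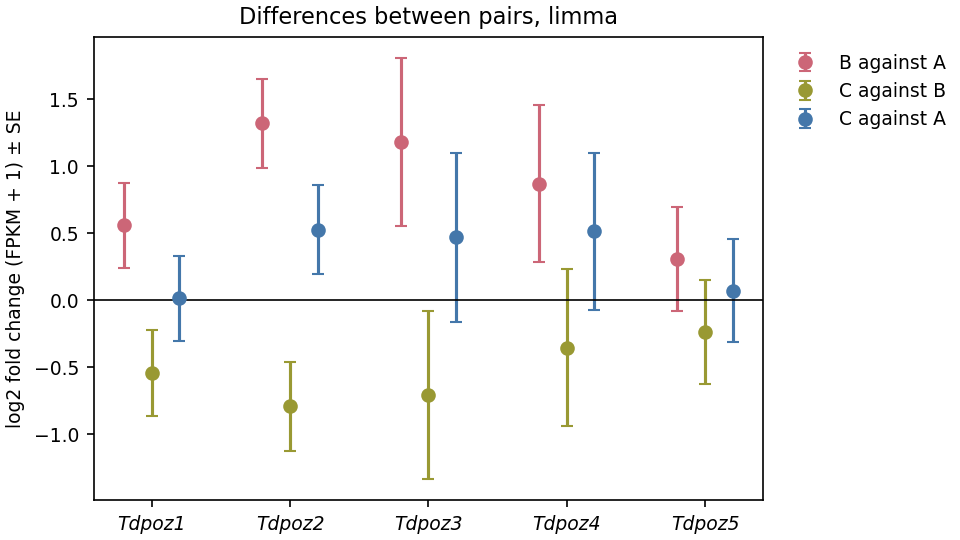
Log2 difference of each member (points) with its standard error (bars) in the 3 comparisons, from limma on log2(FPKM + 1). Tdpoz2 has the largest difference of B from A, 1.32 ± 0.33, and no point passed the adjusted threshold.

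The rest of the cluster was highest in B2 as well. A similarity search of the annotated transcripts found 20 further genes of the family's sequence on chromosome 3, between 93068823 and 94266784, 9 annotated as protein coding and 11 as pseudogenes. These copies were chosen after the values had been seen. All 20 had a mean of at least 1 FPKM, and all 20 were highest in B2, beside 19.5% of all genes tested. Similar genes share reads, so the 20 are not separate observations. Their summed FPKM was 1402 and 1060 in pair A, 1421 and 2434 in pair B, and 1648 and 1084 in pair C, so the 5 named members made up the smaller share of the cluster's signal.

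The copies split by how close they were to a named member. In 10 copies that matched their nearest member at 94.7% to 100% identity, the B against A difference was positive in 8 and negative in 2 (median 0.398), and both B libraries exceeded both of A in 3. In the other 10, at 84.2% to 86.2% identity, it was positive in 10 of 10 (median 1.04, from 0.706 to 1.37), and both B libraries exceeded both of A in all 10. Over all genes that last share was 18.8%, and 55.1% had a positive difference of B from A. Shared reads were divided among genes, and the likeness of these 10 copies to each other was not measured. They therefore do not count as 10 separate observations. The summed FPKM of these more distant copies was 631.4 and 363.0 in pair A, 776.8 and 1262 in pair B, and 907.1 and 438.0 in pair C. In this sum A1 was 1.74 times A2 and C1 was 2.07 times C2, where the sum of the members had ratios of 1.07 and 1.29. These ratios were not particular to the distant copies. Summed with its closest relatives, Tdpoz3 had ratios of 1.63 and 2.15, and Tdpoz4 had 1.76 and 1.15. The groups of Tdpoz1, Tdpoz2 and Tdpoz5 had 0.813, 1.025 and 1.125 for A1 to A2, and 1.235, 0.736 and 1.205 for C1 to C2. Of the 20 copies, 3 had an unadjusted limma p below 0.05 in B against A (Gm9113, Gm5542 and Gm9131), each higher in B with an adjusted p of 0.991, beside 2.77% of all genes in that direction.

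Summed with their closest relatives, the groups of the members differed in which library was low. The Tdpoz4 group (3 genes) summed to 109.8 and 62.6 FPKM in pair A, 73.3 and 181.1 in pair B, and 103.5 and 90.4 in pair C. The Tdpoz3 group (2 genes) had 20.7 and 12.7 FPKM in pair A, 20.4 and 51.8 in pair B, and 30.3 and 14.1 in pair C. The Tdpoz1 group (3 genes) was the one in which A2 exceeded A1, with 178.4 and 219.5 FPKM in pair A, 227.3 and 303.3 in pair B, and 205.8 and 166.7 in pair C. The Tdpoz5 group (4 genes), the largest, was lowest in B1, with 702.2 and 624.2 FPKM in pair A, 544.1 and 1096 in pair B, and 705.0 and 585.1 in pair C. A2 was the lowest library of the Tdpoz3 and the Tdpoz4 group. It was also the lowest of the Tdpoz2 group, narrowly, at 44.94 FPKM against 45.15 in C1.

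**Figure D5:**
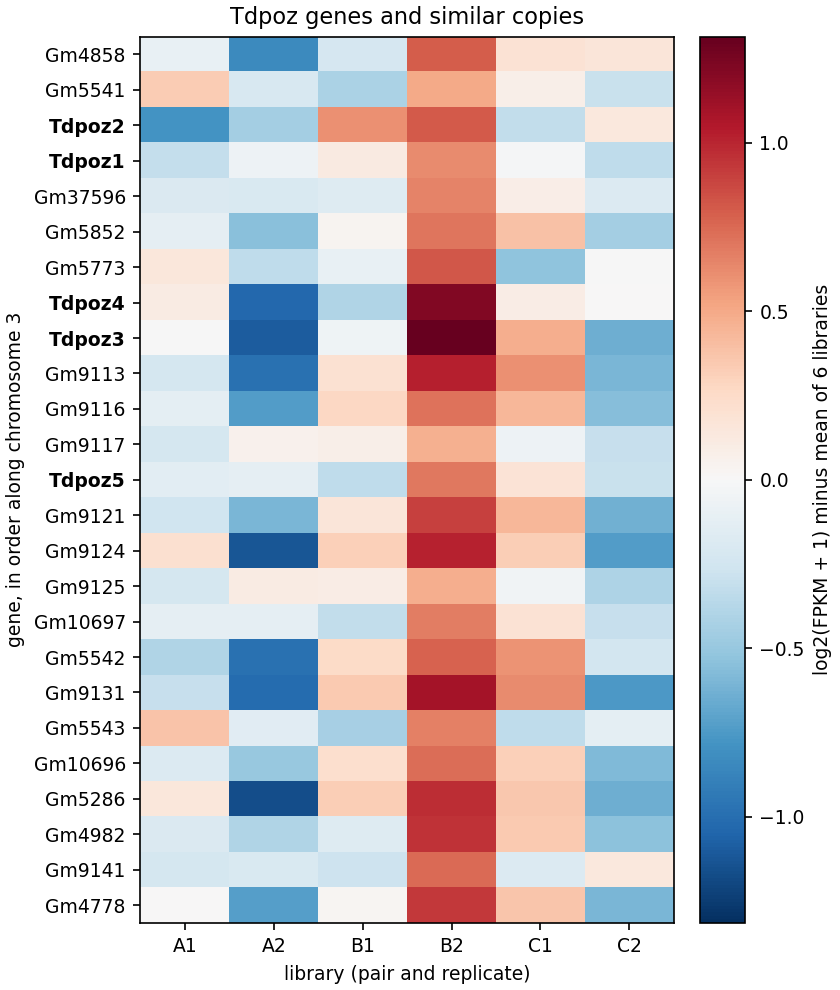
Log2 deviation of each member and copy from its own mean over the 6 libraries (colour), with genes as rows in their order along the chromosome and libraries as columns. B2 is the highest column for every row, and A2 is the lowest for 10 of the 20 copies. The share of all genes lowest in A2 was not counted, and the median deviation of all genes tested was also lowest in A2 (-0.0807).

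Within 500 kb of the outermost members 74 rows are annotated, 47 of them with a value above 0 and 27 with a mean of at least 1 FPKM. Of these 27, 19 are copies and 8 are not similar to the family: Rplp0-ps1, Tchh, Gm36953, S100a11, Them4, Tdrkh, Oaz3 and Mrpl9. Of the 8, Tdrkh alone was highest in B2. It encodes a Tudor and KH domain protein of the piRNA pathway and measured 5.29 and 8.23 FPKM in pair A, 8.62 and 11.5 in pair B, and 8.53 and 10.5 in pair C. Them4, an acyl-CoA thioesterase, measured 27.7 FPKM in B2, its lowest library.

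The promoter of Tdpoz1 is shown because the members were highest in 1 and the same library, its window holds a TATA-like word, and an identical stretch lies before another gene of the cluster. The 3 members with a RefSeq promoter window (GRCm38.p6) were Tdpoz1, Tdpoz4 and Tdpoz5. Printed are the 223 bases of the window before the GENCODE start of Tdpoz1, chr3:93676311-93676533, minus strand, with TAATCC and TATATAA in capitals.

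Tdpoz1 promoter: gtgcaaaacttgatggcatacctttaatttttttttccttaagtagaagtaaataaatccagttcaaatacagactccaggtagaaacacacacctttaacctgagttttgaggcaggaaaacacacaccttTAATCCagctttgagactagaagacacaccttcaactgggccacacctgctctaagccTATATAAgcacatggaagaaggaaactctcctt

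Both strands were searched for the TATA-like words TATATAA and TATAAA, for TAATCC, which OTX-class homeodomains bind, and for the motif of DUX, a factor that activates genes of the 2-cell stage. The RefSeq start lies 27 bases downstream of the GENCODE start, at which the printed stretch ends. TATATAA begins 33 bases before the GENCODE start and 60 before the RefSeq start, and 3.04% of the 32851 promoter windows of 250 bases hold it on either strand. TAATCC begins 91 bases before the GENCODE start and 118 before the RefSeq start, and 6.25% of windows hold it. The windows of Tdpoz4 and Tdpoz5 hold neither word, and neither TATAAA (12.4% of all windows) nor the DUX motif (0.0304%) is in any of the 3. The searched bases of Tdpoz4 and Tdpoz5 end directly before the first coding base, since both genes are annotated by coding bases alone. Whether their windows are promoters was not tested, so the missing words are not a result about their promoters. The Tdpoz1 window was 100% identical over 222 bases to that of Tdpoz9 (Gm9125), and 65.0% and 60.7% identical to those of Tdpoz5 and Tdpoz4. Tdpoz5 and Tdpoz7 (Gm10697) were 99.6% identical over 250 bases, so these windows, like the transcripts, come in near-copies.

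The other genes of the 2-cell programme, which the embryo transcribes in a burst at this stage, had positive differences of B from A in 33 of 35 tested (38 listed) and negative ones in 2 (median 0.633), beside 55.1% of all genes with a positive difference. Of the 35, 10 were higher in B with an unadjusted limma p below 0.05, beside 2.77% of all genes, and none passed adjustment. The list was chosen with earlier results of these data known. It holds families of similar genes, among them Zscan4, Usp17l and Tcstv, and the reads they share were not measured. Its genes therefore do not count as separate observations. Without A1 that median was 1.25, without B1 1.08, without A2 0.39 and without B2 0.587. The difference of C from B was negative in 33 of the 35 (median -0.563), where 49.9% of all genes had a positive one. That median ran from -1.05 without C1 to -0.155 without C2. C against A gave 23 positive and 12 negative differences (median 0.14), beside 56.5% of all genes with a positive one. Its median was negative without A2 (-0.187) or C1 (-0.246). The median log2 deviation of the programme's tested genes from their own means was highest in B2 (0.747) and lowest in A2 (-0.671) and C2 (-0.448). A2 and C2 were the libraries that stood apart and had the lowest oocyte and maternal markers, whose part in this was not tested. Tdpoz3 and Tdpoz4 were also highest in B2 and lowest in A2. The 4 most abundant were Gm5662 at 505 ± 277, 1243 ± 228 and 572 ± 356 FPKM in pairs A, B and C (SD, n = 2), Gm2016, Tcstv3 and Usp17lb. Gm2016 measured 383 ± 127, 1020 ± 118 and 512 ± 319 FPKM in the same order. Tcstv3 was not highest in B2: it reached 759.9 FPKM in B1 and 582.2 in B2. Usp17lb, a deubiquitinating enzyme of the DUB family, measured 461.4 and 352.7 FPKM in pair A, 480.0 and 793.9 in pair B, and 504.9 and 389.4 in pair C, with B2 alone far above the rest.

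The partners of this protein class were divided in direction. Of 10 tested genes of the SPOP and CUL3 ligase list (11 listed), 4 had a positive and 6 a negative difference of B from A. Among all genes 55.1% had a positive one. The median of the list was -0.0907, with none below an unadjusted limma p of 0.05. That median was 0.00738 without A1, -0.157 without A2, -0.0618 without B1 and -0.0334 without B2, and -0.164 and -0.171 under median scaling and quantile normalization. C against B gave 6 positive and 4 negative differences (median 0.236), beside 49.9% of all genes with a positive one. The median was 0.108 without B2 and 0.125 without C1. Cul3, the scaffold, measured 280 ± 18.7, 293 ± 41.3 and 270 ± 49.4 FPKM in pairs A, B and C (SD, n = 2). Rbx1, the RING subunit, measured 324 ± 37.2, 227 ± 54.9 and 332 ± 58.8 FPKM, with its lowest value, 188.4, in B2. Nedd8, the modifier that activates cullins, had 188 ± 11.1, 153 ± 4.81 and 150 ± 9.76 FPKM, and Cand1, which exchanges substrate adaptors, had 45.5 ± 13.3, 34.9 ± 4.50 and 43.6 ± 6.06.

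Among the 7081 genes that averaged 5 FPKM or more, those whose log2 values ran closest to the family sum over the 6 libraries included Gm37596, Gm10244, Hnrnpdl and Gm9432, with Pearson's r of 0.997, 0.992, 0.986 and 0.984. Gm37596 is a copy that holds 63.4% of the stretches of Tdpoz5. Hnrnpdl, an RNA-binding protein, ranked the 6 libraries exactly as the family sum did (Spearman's rho of 1). Without B2 and C1, r was 0.54 for Gm37596 and 0.186 for Gm9432, and was 0.896 for Gm10244 and 0.894 for Hnrnpdl. These likenesses are a description over 6 libraries, and B2 and C1, the libraries with the highest family sums, were left out together.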

How the data were processed

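FPKM values were made by the authors and deposited for 53023 genes in 6 libraries of mouse 2-cell embryos. The submitters' processing notes name mm10, Trimmomatic, Trim Galore, cutadapt, STAR and featureCounts. Versions, annotation release and strand handling were not given in the sources used here. There are 0 spike-in rows. FPKM times length gave the assigned reads, all multiples of 0.01 read (tolerance 0.0005) and 55.6% to 57.9% whole (tolerance 0.001).

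Values were log2(FPKM + 1), so that changes of low genes are understated. All 13443 genes averaging 1 FPKM or more were fitted in limma 3.58.1 (R 4.3.3) with 1 mean per pair and a variance trend. Adjustment of p was by Benjamini-Hochberg over all of them (threshold 0.05). Nothing in the labels says that the pools within a pair had separate parents or dates, so a p-value measures only the spread between these pools, which may be technical. Sequences came from GENCODE M21 and RefSeq, and copies from BLAST 2.17.0 (at least 70% identity over at least 500 bases and 50% of the transcript).

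The rule for names took the members, rows within 500 kb averaging 1 FPKM or more, the 4 most abundant genes of each list and the 5 genes most like the family sum, of which 1 is not reported here. Marker lists are given as sums, and most copies within the window by counts and in the plot of the cluster. Nr5a2 and Ldhc were named for their share of a sum. Tdrkh and Them4 were singled out among the neighbours, and the copies named outside this window or beyond this rule, after their values were seen. Members and lists were chosen with earlier results of these data known. The alternatives were another pseudocount, filter, scaling or fit, a replicate block and leaving out each library; limma-voom and the sums with the copies or without Tdpoz5 were added after seeing the data.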

Additional observations from a re-analysis of the deposited data

How the results depend on the processing

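No member passed an adjusted p of 0.05 in any of 240 fitted values (5 members, 3 comparisons, 16 settings), with a lowest adjusted p of 0.804. The number of genes called over the whole table went from 0 to 1 in C against B with a pseudocount of 0.1. Without a filter it was 34 in B against A, 31 in C against A and 16 in C against B. On leaving out each library in turn, the log2 ratio of the family sum ran from 0.0393 to 1.02 for B to A and from -0.854 to 0.125 for C to B, with the low end of the first and the high end of the second both without B2. For C to A it ran from -0.0283 to 0.334. The member differences that changed sign were, for B against A, Tdpoz5 (-0.203 to 0.819), and for C against B, Tdpoz4 (-1.16 to 0.453) and Tdpoz5 (-0.747 to 0.274), each without B2. For C against A they were Tdpoz1 (-0.147 to 0.173), Tdpoz3 (-0.0889 to 1.03), Tdpoz4 (-0.0534 to 1.08) and Tdpoz5 (-0.165 to 0.308). Median scaling gave -0.0613 for Tdpoz1 and -0.00271 for Tdpoz5 in C against A, and moved no library's median by more than 0.125. Quantile normalization gave -0.0399 for Tdpoz1 in C against A. Tdpoz2 in B against A stayed between 1.15 and 1.49 over the libraries left out. The cause of these changes was not tested. The differences between replicates 1 and 2 correlated at 0.098 for pairs A and B, 0.203 for A and C, and 0.00499 for B and C. A2 and C2 lay together on the first principal component (49.3 and 49.7), where A1, B1, B2 and C1 lay from -32.7 to -11.1. The correlation of A2 with C2 was 0.923, and that of A1 with A2 was 0.896. With the replicate block 0 genes were called in each comparison, with Tdpoz2 in B against A at a limma adjusted p of 0.804. Depth limits Tdpoz3 and Tdpoz2 most. No molecular identifiers are recorded, so read numbers may count PCR copies.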

Other observations

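The similarity search also found 3 sequences of the family outside chromosome 3: AC131330.1 on chromosome 14, and Gm27228 and Gm27150 on chromosome 7. Each was listed at 0 in all 6 libraries.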
